A study of Drosophila melanogaster with 23 samples.

Results

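Among the transcripts measured in Drosophila melanogaster wing imaginal discs, 18 varied between biological replicates in both the Myb mutant and the yw control while their mean signals stayed close between the genotypes. They were chosen on measured values. Arrays of 1 RNA sample were averaged on the log2 scale, and a transcript was kept when its signal was at least 500 in all 6 biological replicates, its SD was at least 0.3 over the 3 mutant replicates and at least 0.3 over the 3 control replicates, and its group means differed by less than 1 (log2). The table held 21051 transcripts, of which 16637 carried more than 1 value and 8926 reached the signal minimum in all 6 replicates. Because the rule used the spread and the difference of means, both are given as descriptions without a test.

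Discs were dissected from male 3rd instar larvae kept at 25°C. The mutant larvae were hemizygous for Myb MH107 (carried as Df(1)MH107, w1118), a null allele made by mobilizing a P element. It lacks the 5′ end of Myb and the neighbouring gene AlkB, and had been outcrossed to the control stock. Myb mutants die at the 3rd instar or pupal stage. The control larvae came from the yw stock (y1 w67c23). Each genotype had 3 biological replicates, measured on 12 mutant arrays and 11 control arrays, with 4 arrays for each replicate except the third control replicate, which had 3. The values were Cy3 signal intensities of a one-color array, and their number limited the precision.

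The wing disc is a sac of dividing epithelial cells that gives rise to the adult wing and thorax, and Myb is a DNA-binding protein of the conserved complex that includes E2F2 and RBF proteins, best known there for activating genes of mitosis. A biological replicate of disc tissue pools the RNA of dissected discs, and such a sample can also hold RNA of tissue that lies against the disc, such as fat body, trachea and hemocytes. Fewer cells of a type and less RNA per cell cannot be told apart in such samples.

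AlkB, which lies in the deletion, had signals of 48.3, 50.9 and 46.6 in the 3 mutant replicates, against 608.3, 757.7 and 642.6 in the 3 control replicates. Myb itself had 4586, 4929 and 4717 in the mutant, against 15216, 15119 and 16233 in the control, and a probe outside the deleted 5′ end would still detect RNA of the mutant allele. Both genes separated the genotypes without overlap. The third mutant replicate stood apart from the other mutant replicates. Over the 8926 transcripts its log2 signals correlated at r = 0.978 with replicate 1 and 0.984 with replicate 2, which correlated at 0.998 with each other, whereas control replicates correlated at 0.992 to 0.996. These correlations are across transcripts, which are not independent replicates. The replicate numbers were those of the sample titles. Another description of the arrays places the control sample with fewer arrays under replicate 1, so which control replicate shares a number with which mutant replicate is uncertain in part.

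No member could be given a gene name. The array identifies transcripts by FlyBase transcript number, and 1999 of these were paired with 1752 gene symbols through a partial list of the study that is ordered by its own comparison of the genotypes. None of the 18 members was among them (0 of 18), so their functions are not described here and no sequence is shown.

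Spread in both genotypes was uncommon. An SD of at least 0.3 was reached among mutant replicates by 571 transcripts (6.4% of 8926) and among control replicates by 81 (0.907%). Both lists shared 25 transcripts, which were 4.38% of the mutant list and 30.9% of the control list. Of these 25, the limit on the difference of means left 18 members and put 7 aside. The plot of both SDs shows the members in the corner above both minimums.

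**Figure D1:**
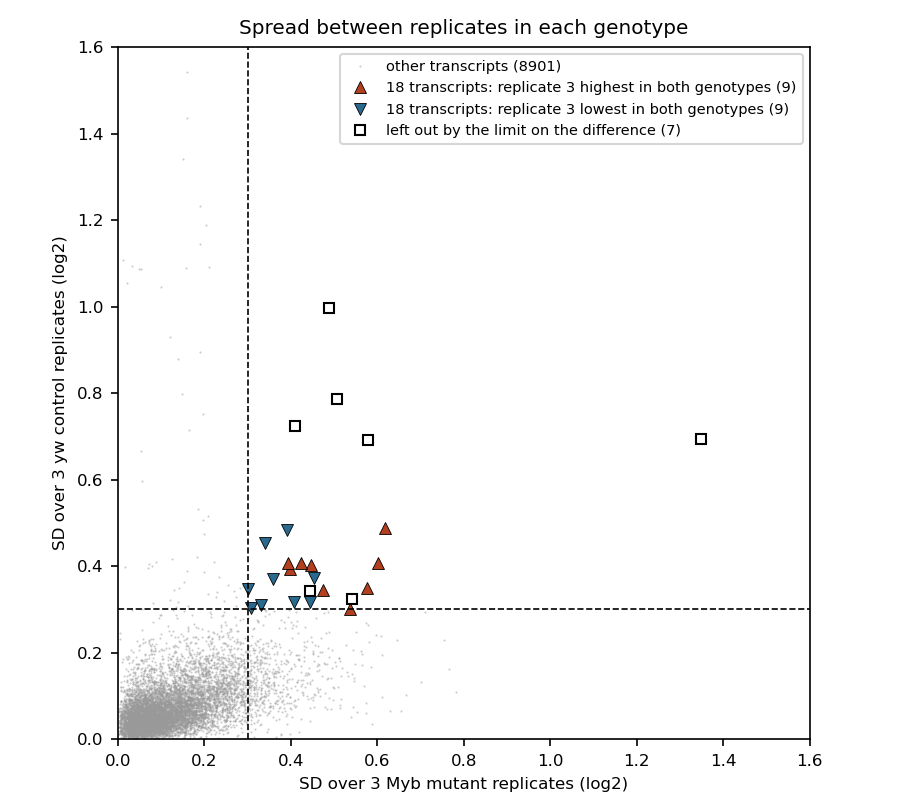
SD over 3 Myb mutant replicates (horizontal axis, log2) against SD over 3 yw control replicates (vertical axis, log2), 1 point per transcript, for the 8926 transcripts with a signal of at least 500 in all 6 replicates; dashed lines mark the minimum of 0.3. The 18 members lie between 0.30 and 0.62 in the mutant and between 0.30 and 0.49 in the control, and 5 of the 7 transcripts put aside by their genotype difference have larger control SDs than any member.

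Within the members, the SD ran from 0.30 to 0.62 in the mutant (median 0.42) and from 0.30 to 0.49 in the control (median 0.37), and it was larger in the mutant for 13 of 18. The medians over the 8926 transcripts were 0.10 in the mutant and 0.06 in the control. The member closest to the minimum was FBtr0070806, with a mutant SD of 0.3005, followed by FBtr0075339 and FBtr0073829, with control SDs of 0.302 and 0.303. Just outside were FBtr0081214 and FBtr0070460, both with a control SD of 0.298, and FBtr0072087, with 0.296.

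The order of the replicates divided the members evenly. Replicate 3 had the highest signal in both genotypes in 9 members and the lowest signal in both in the other 9, so it was at the same extreme in 18 of 18. This was so for 5393 of the 8926 transcripts (60.4%). Counting any replicate number, the same one was highest in both genotypes in 11 members (61.1%, against 47.6% of the 8926) and lowest in both in 11 (61.1%, against 50.8%), and replicate 3 made up 9 of each 11. Replicates 1 and 2 shared the highest place in 2 members (11.1%, against 19.8%) and the lowest place in 2 (11.1%, against 18.1%). The whole order of 3 replicates was the same in 4 members (22.2%, against 25.1%). The position of replicate 3 was the part of the order that all 18 had in common. For FBtr0082456 the lowest place of replicate 3 rested on 1 low array in the mutant and on 1 low array in the control.

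The shared position of replicate 3 went with spread among transcripts that were not members too. Grouped by the smaller of the 2 SDs, and with the same limit on the difference of means, transcripts with a smaller SD under 0.05 had replicate 3 at the same extreme in 1769 of 4084 cases (43.3%), and those from 0.1 to 0.15 in 942 of 1113 (84.6%). Just below the minimum, from 0.25 to 0.3, it was 39 of 41 (95.1%). Among the 546 transcripts variable in the mutant only, the share was 86.3%, whereas among the 56 variable in the control only it was 26.8%. In all 546 of the first list, which was selected on the mutant SD, mutant replicate 3 was the highest or the lowest of its genotype, as it was in 91.7% of the 8926.

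**Figure D2:**
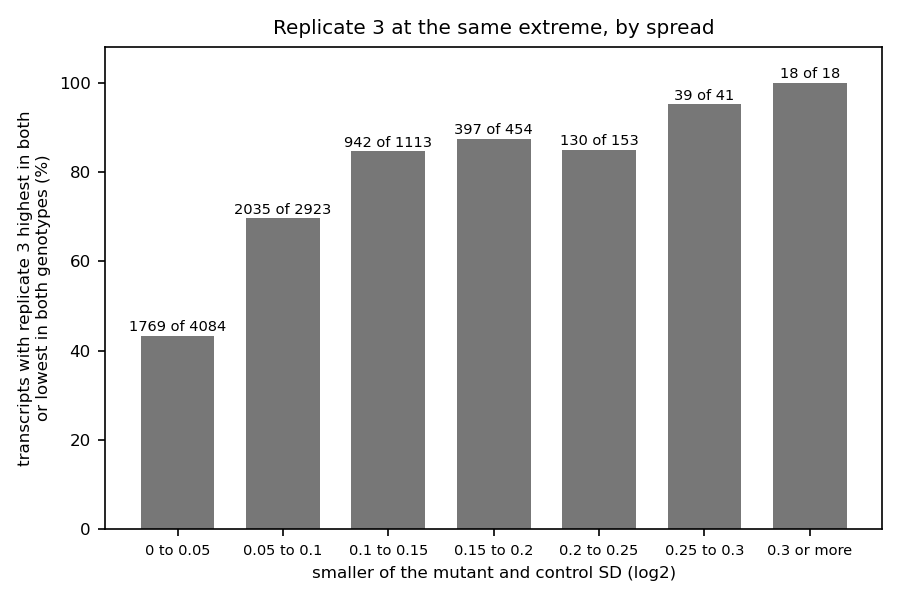
Percent of transcripts in which replicate 3 was highest in both genotypes or lowest in both (vertical axis), by the smaller of the mutant and control SD on the log2 scale (horizontal axis); counts stand over the bars and the right-hand bar is the 18 members. The share was 43.3% below an SD of 0.05 and 95.1% between 0.25 and 0.3.

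Although replicate 3 was an extreme in both genotypes, it did not stand equally far from the others. In the mutant it was the replicate apart, farther from the middle replicate than the opposite extreme was, in 17 of 18 members. In the control it was the replicate apart in 9 members, and replicate 2 was so in the other 9. The gap of replicate 3 to the nearer of the other replicates was 0.21 to 1.07 in the mutant (median 0.62) and 0.04 to 0.81 in the control (median 0.31), and it was under 0.2 in 7 members in the control and in 0 in the mutant. Over the 8926 transcripts, replicate 3 was apart in the mutant in 74.4%, and in the control replicate 3 was apart in 46.9% and replicate 2 in 35.3%. The members therefore fell into 4 sets, by the direction of replicate 3 and by the control replicate that stood apart.

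**Figure D3:**
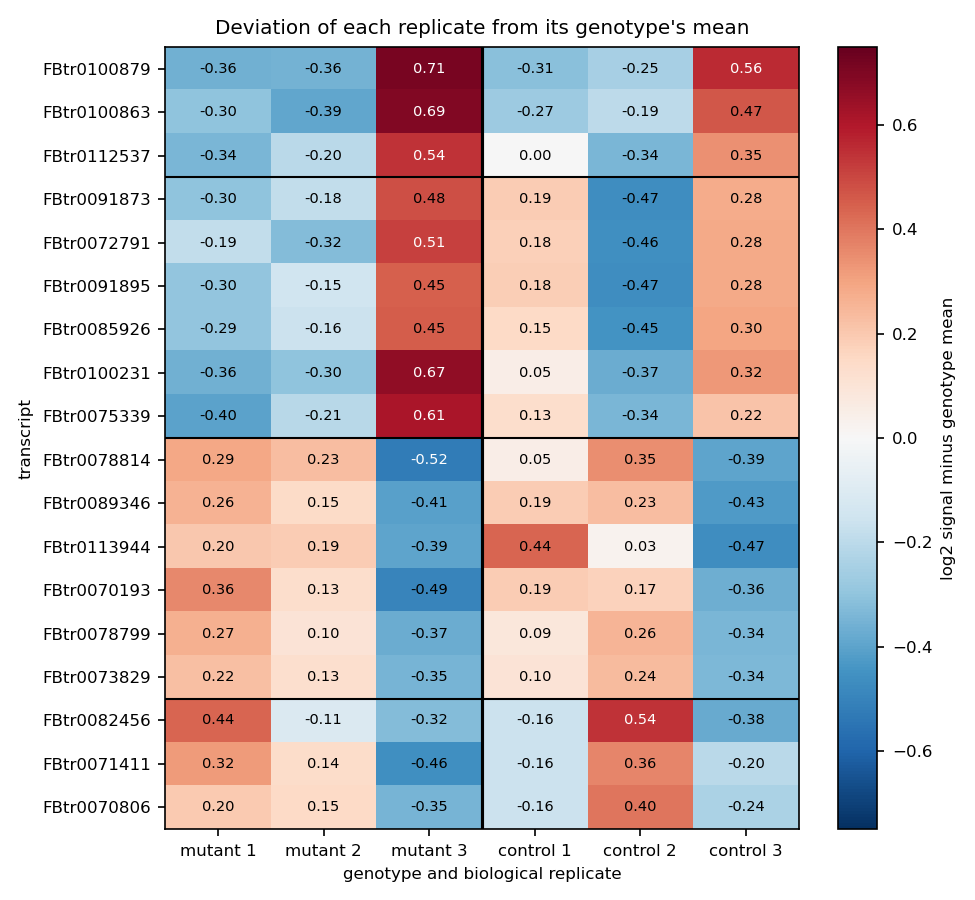
Difference of each replicate's log2 signal from the mean of its genotype, for 18 members (rows) in 3 Myb mutant (left) and 3 yw control replicates (right); lines separate the 4 sets. The third mutant column is positive in the upper 9 rows (0.45 to 0.71) and negative in the lower 9 (-0.52 to -0.32), and the second control column is the most negative of its genotype in the second set and the most positive in the fourth.

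In 3 members replicate 3 was high and apart in both genotypes. FBtr0100879 had signals of 1483, 1486 and 3119 in mutant replicates 1, 2 and 3, against 1539, 1613 and 2827 in control replicates 1, 2 and 3. FBtr0100863 had 827, 779 and 1650.5 in the mutant, against 1151, 1215 and 1923 in the control. In both, replicates 1 and 2 lay close together in each genotype and replicate 3 was the only one to differ. FBtr0100879 had the largest SD of the members in each genotype, 0.62 in the mutant, against 0.49 in the control. By the fold between the highest and lowest replicate, FBtr0100863 was above it in the mutant (2.12 against 2.10), and FBtr0082456 (1.90) and FBtr0113944 (1.87) were above it in the control (1.84). FBtr0112537 had 4248, 4682 and 7828 in the mutant, against 4079, 3215 and 5186 in the control. Here control replicate 1 lay at the mean of its genotype (deviation -0.00096), with replicate 2 about as far below it as replicate 3 was above it.

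In 6 members replicate 3 was high in both genotypes, but in the control replicate 2 was the one apart, as a low value. FBtr0085926 had signals of 9124, 9998 and 15314 in the mutant, against 11335, 7514 and 12577 in the control. FBtr0091873 had 6860.1, 7426 and 11806 in the mutant, against 9240.0, 5866 and 9849 in the control. FBtr0091895 had 9757, 10822 and 16349.8 in the mutant, against 12607, 8022 and 13486 in the control. These 3 followed each other closely: over the 153 pairs of members, the 3 pairs among them had the 3 smallest values of the largest gap between deviations in any replicate (0.037 to 0.040, log2). Transcripts that share sequence would share probe signal, which was not tested.

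The other 3 of this set had the same shape. FBtr0100231 had 7393, 7687 and 15055 in the mutant, against 9097, 6802 and 11002 in the control, a fold between its highest and lowest replicate of 2.04 in the mutant, against 1.62 in the control. FBtr0075339 had 1268, 1452 and 2558 in the mutant, against 1935, 1393 and 2053 in the control, where replicates 1 and 3 were 0.09 apart on the log2 scale. FBtr0072791 had 826, 750.4 and 1338 in the mutant, against 1226, 789 and 1321 in the control. For all 9 members in which replicate 3 was highest, its log2 signal exceeded the mean of replicates 1 and 2 by 0.67 to 1.07 in the mutant (median 0.81) and by 0.32 to 0.84 in the control (median 0.45). In the control, replicate 2 was the lowest in 7 of these 9.

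In 6 members replicate 3 was low and apart in both genotypes. FBtr0078799 had signals of 2554, 2278 and 1643 in the mutant, against 1957, 2203 and 1452 in the control. FBtr0073829 had 909, 849 and 610.2 in the mutant, against 1026, 1131 and 756 in the control. Their deviations differed by at most 0.043 in any replicate, the smallest such value after those of the 3 transcripts above. FBtr0089346 had 1333, 1229 and 837 in the mutant, against 1113, 1144 and 725 in the control, and FBtr0070193 had 1627, 1387 and 898 in the mutant, against 1021, 1010.1 and 695 in the control. In both, control replicates 1 and 2 were nearly equal and only replicate 3 was low.

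The last 2 of this set were less even between arrays. FBtr0078814 had 954, 913 and 542 in the mutant, against 955, 1175 and 703 in the control, and the arrays of mutant replicate 3 read 791, 691, 592 and 267. FBtr0113944 had 1049.6, 1043 and 695 in the mutant, against 1113, 838 and 595 in the control, where replicate 1 was the highest and the 3 arrays of replicate 3 read 418, 765 and 657. In each, replicate 3 was the lowest in both genotypes, and 1 of its arrays read well below the rest.

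In the remaining 3 members replicate 3 was lowest in both genotypes, but in the control replicate 2 stood apart as a high value. FBtr0071411 had signals of 1047, 924 and 610.1 in the mutant, against 792, 1141 and 769 in the control. FBtr0070806 had 748, 724 and 514 in the mutant, against 594, 877 and 564 in the control. In both, control replicates 1 and 3 differed little, by 0.04 and 0.07 on the log2 scale, so the lowest place of control replicate 3 rested on a small gap. FBtr0082456 had 1145, 784 and 676 in the mutant, against 1023, 1669.5 and 880.2 in the control. It was the only member in which mutant replicate 1, as a high value, was the one apart. The arrays of its mutant replicate 3 read 1301, 889, 928 and 195, all but the last above the 784 of replicate 2. The lowest place of mutant replicate 3 thus rested on that last array. Control replicate 3 of this member read 1201, 559 and 1016 on its 3 arrays, against the 1023 of control replicate 1. Its lowest place there rested on the array that read 559. For all 9 members with replicate 3 lowest, replicate 3 lay below the mean of replicates 1 and 2, at -0.78 to -0.49 in the mutant (median -0.59) and at -0.70 to -0.31 in the control (median -0.55). In these 9, mutant replicate 1 was the highest every time, and control replicate 2 was the highest in 7.

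**Figure D4:**
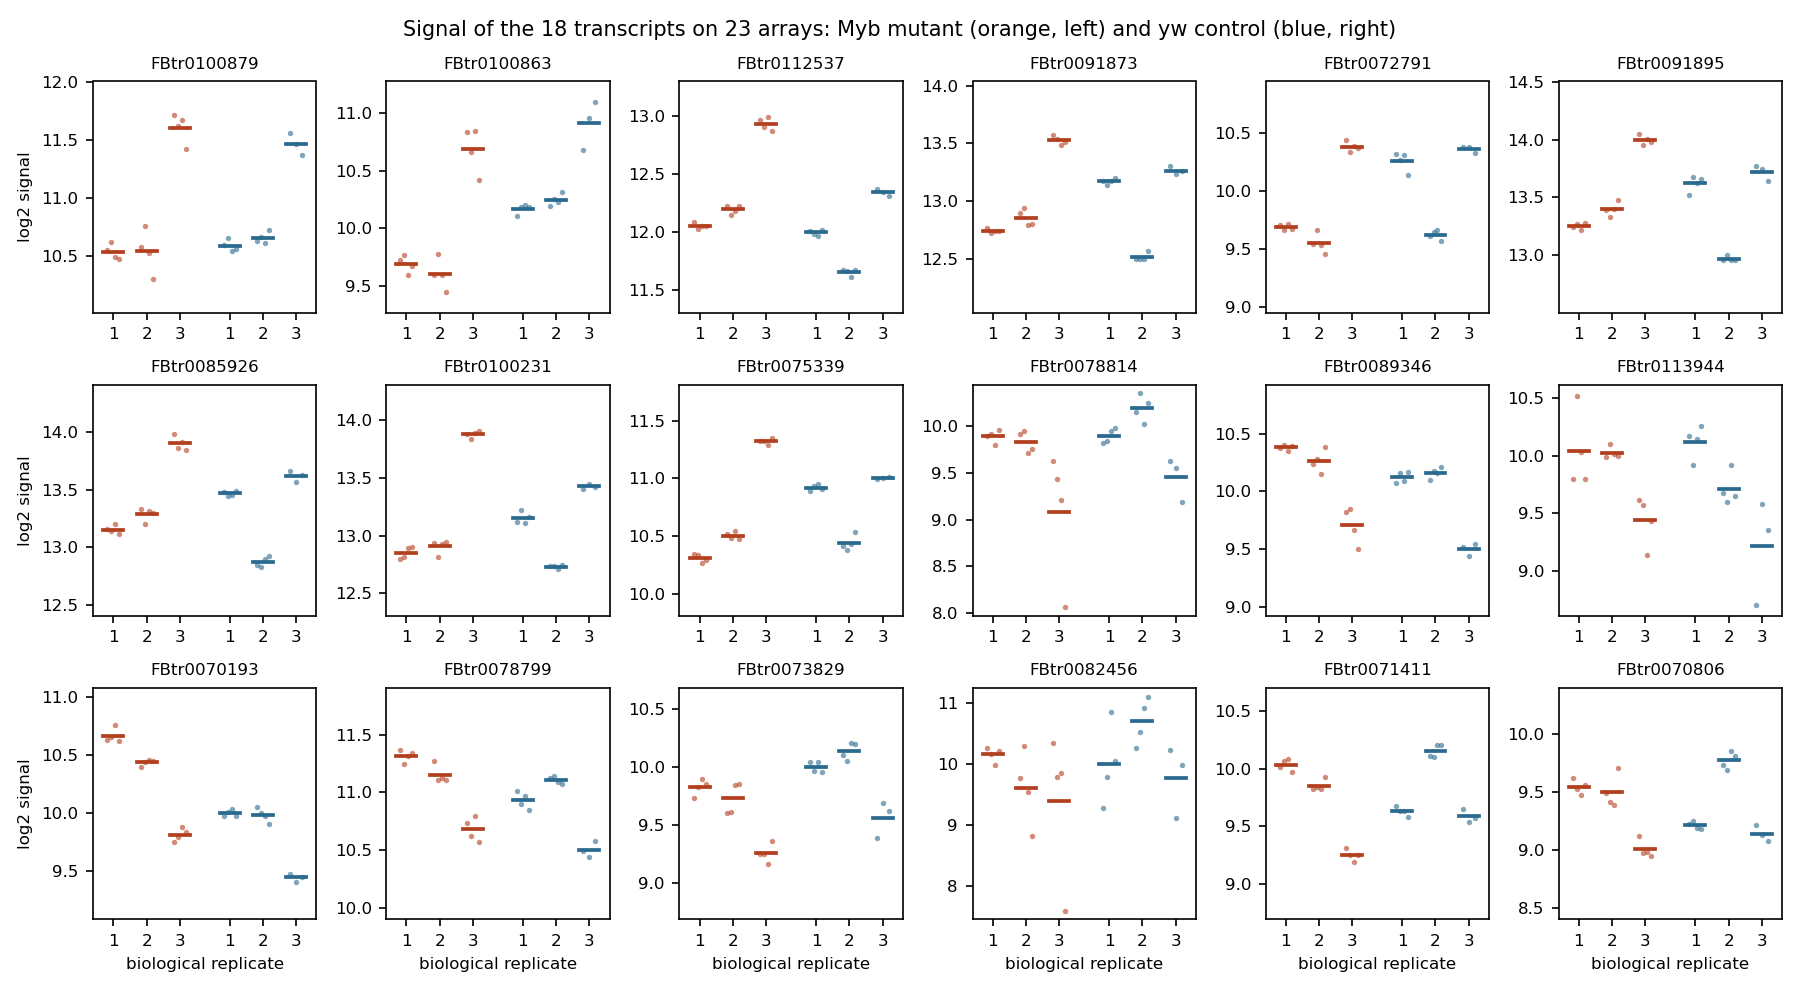
Log2 signal of the 18 members on every array (points) with the mean of each biological replicate (bars), for Myb mutant replicates 1 to 3 (orange, left in each panel) and yw control replicates 1 to 3 (blue, right); axes differ between panels. Replicate 3 is at the top in both genotypes in the first 9 panels and at the bottom in both in the last 9, and the points of FBtr0082456, FBtr0078814 and FBtr0113944 scatter more than the others.

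Arrays of 1 RNA sample measured these differences repeatedly. The pooled SD between arrays was 0.035 to 0.683 over the members (median 0.065), close to the median of 0.057 over the 8926 transcripts. It was under the smaller of both replicate SDs in 17 of 18 members (4251 of the 8926), a count that the rule's SD minimum of 0.3 largely fixed. The exception was FBtr0082456, whose arrays had a pooled SD of 0.683 and whose mutant replicate 3 read 1301, 889, 928 and 195 on 4 arrays. FBtr0078814 (0.314) and FBtr0113944 (0.261) followed. In 17 members every array of mutant replicate 3 lay beyond all other mutant arrays (48.5% of the 8926), in 14 every array of control replicate 3 lay beyond all other control arrays (28.7%), and in 14 both held (18.9%). The arrays share the RNA whose mean chose the members, so these counts describe measurement precision and are not a test.

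Taking arrays 1 and 2 alone, and then arrays 3 and 4 alone, the highest and lowest replicate were both the same in 13 of 18 members in the mutant (72.2%, against 61.9% of the 8926) and in 15 in the control (83.3%, against 55%). Replicate 3 was at the same extreme in both genotypes in 17 members from arrays 1 and 2, in 17 from arrays 3 and 4, and in 16 from both. The exceptions were FBtr0082456 and FBtr0091895. Control replicate 3 had no array 4, so its value in the second comparison was that of array 3 alone.

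Single replicates decided membership to unequal degrees. Without mutant replicate 3, 2 transcripts met the rule and 1 of the 18 members was left, FBtr0082456. Without control replicate 1, 61 met it, including all 18. Leaving out control replicate 2 or control replicate 3 each left 8 of the members, among 25 and 13 transcripts that met the rule. Without mutant replicate 1, 17 members were left, and without mutant replicate 2 all 18.

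Between the genotypes, the members' means differed by -0.45 to 0.50 on the log2 scale (mutant minus control, median 0.02), and 9 of 18 means were higher in the mutant. The mutant and control replicates overlapped in all 18, whereas in 29% of the 16637 tested transcripts they did not. No member was called by limma at an adjusted p under 0.001 (1.41% of tested transcripts) or under 0.05 (6.41%). By limma 0 members had an unadjusted p under 0.05 (22.7%), and by a Student's t-test on the 6 replicate means also 0. The study's methods name this test but do not say whether arrays were averaged first. The members' adjusted p from limma ran from 0.304 to 0.989 (median 0.741). With the replicate number as a block in limma, these calls changed: 0 members passed an adjusted p of 0.001 (0.367% of tested transcripts), 1 passed 0.05 (5.65%) and 5 had an unadjusted p under 0.05 (26.6%). The member that passed was FBtr0070193, higher in the mutant by 0.50 on the log2 scale and in all 3 same-numbered pairs (limma with the block, adjusted p = 0.0461). Which control replicate shares a number with which mutant replicate is uncertain in part, and these blocked calls depend on the numbering used. FBtr0112537 and FBtr0089346, with higher means in the mutant, and FBtr0100863 and FBtr0073829, with lower means, were the other 4, at adjusted p of 0.0876 to 0.166. The rule limited the difference and required the spread, so nothing is read from these counts.

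The 7 transcripts put aside by the difference of means included larval serum proteins, which the fat body makes and releases into the hemolymph as an amino acid store. Lsp2 (FBtr0089324) had signals of 14619, 10375 and 20929 in mutant replicates 1, 2 and 3, against 1562, 2939 and 993 in the control. Lsp1gamma (FBtr0072463) had 14320.1, 9498 and 21172 in the mutant, against 1435, 1966 and 768 in the control, and Lsp1beta (FBtr0078025) had 22712, 17323 and 30538 in the mutant, against 2762, 4744 and 1740.0 in the control. In each, replicate 3 was the highest in the mutant and the lowest in the control, which no member showed. The limit on the difference of means kept these transcripts out, so nothing is read from that contrast. The antisense transcript asRNA:CR11538 (FBtr0089326), which overlaps Lsp2 in the RefSeq annotation, and the unnamed FBtr0075749 had the same arrangement. Since the cDNA was double-stranded, signals of Lsp2 and its antisense partner cannot be told apart.

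The other 2 had the members' arrangement of replicate 3. CG14629 (FBtr0070179) had 991, 699.9 and 1295 in the mutant, against 3516, 4337 and 5644 in the control, with replicate 3 highest in both. TwdlT (FBtr0085101), a cuticle protein of the Tweedle family, had 1383, 1275 and 696 in the mutant, against 3414, 3196 and 2246 in the control, with replicate 3 lowest in both. With these 7 included, replicate 3 was at the same extreme in 20 of 25.

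**Figure D5:**
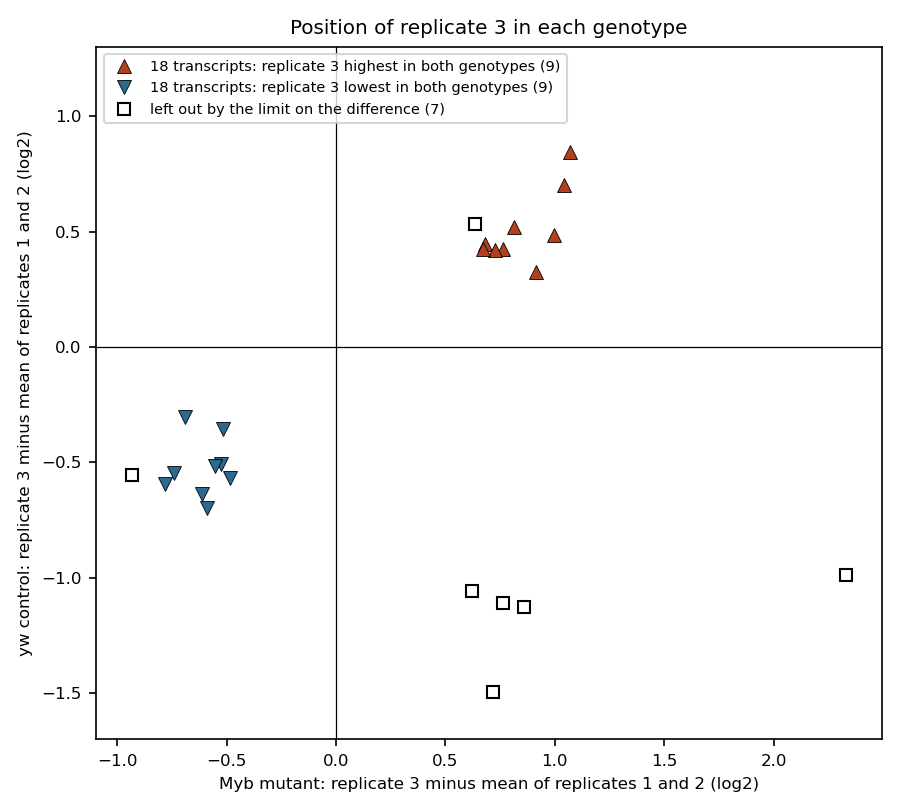
Replicate 3 minus the mean of replicates 1 and 2 on the log2 scale, in the Myb mutant (horizontal axis) and in the yw control (vertical axis), for 18 members (triangles) and the 7 transcripts put aside by their genotype difference (squares). All members lie in the upper right or lower left corner, and 5 of the 7 squares lie in the lower right, high in mutant replicate 3 and low in control replicate 3.

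Markers of other tissues were followed for the same replicates, as far as they could be identified. Only transcripts in the study's partial list, which is ordered by its comparison of the genotypes, have a symbol here. Identified markers may therefore differ more between the genotypes than the rest of each list. The sums below do not measure the tissue content of each genotype. Of 15 listed fat body genes, 8 had a symbol here, and all 8 were highest in mutant replicate 3 and lowest in control replicate 3. Their summed signal was 64795, 47719 and 94254 in mutant replicates 1, 2 and 3, against 8113, 12717 and 4770.4 in the control replicates, and the lowest single value was that of apolpp, a lipoprotein of the hemolymph, with 97.0 in control replicate 3. The fat body sum was thus highest in mutant replicate 3 and lowest in control replicate 3, an arrangement that no member had. Lsp2, Lsp1gamma and Lsp1beta, which are among the 8, had this arrangement and were kept out of the members by their genotype difference. The rule removes transcripts with so large a difference, so nothing is read from the lack of this arrangement among the members. Of 15 hemocyte genes 12 were identified, with summed signals over 14 transcripts of 23801 to 26399 in the mutant, against 85155 to 101259 in the control. Of these 14 transcripts, 13 had a lower mean in the mutant and 1, PPO3, a higher one. Col4a1 alone had 14891 of the 26399 in mutant replicate 1. Its difference of means (mutant minus control, log2) was -0.51, against -6.2 for PPO1, so the sum does not describe each transcript. Muscle and myoblast genes (6 of 21 identified) summed over 8 transcripts to 27787, 26367 and 23838 in mutant replicates 1, 2 and 3, against 30955, 32936 and 29231 in the control replicates. The sum was lower in the mutant, but 5 of the 8 transcripts had a higher mean there and 3 a lower one. Several lists had replicate 3 lowest in both genotypes, as 9 of the members did and as 32.7% of the 8926 transcripts did. This held for 5 of 8 muscle and myoblast transcripts, 2 of 3 trachea transcripts, 6 of 8 transcripts that mark other discs and 7 of 9 glycolysis and lactate transcripts. The last 2 lists held transcripts of only 3 genes each. Other lists went otherwise, with 0 of 8 fat body, 0 of 8 detoxification and 0 of 5 mitochondrial oxidative phosphorylation transcripts. Replicate 3 was highest in both in 3 of these 8 detoxification and 3 of these 5 mitochondrial transcripts (27.8% of the 8926). Of 14 hemocyte transcripts, 4 were lowest and 4 highest. Of the listed salivary gland, gut and neuron and glia genes 0 were identified, so these tissues were not followed. The part of other tissues in the members' spread was not tested.

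Of 33 genes that pattern the wing disc, ct, rho and eyg were identified, again only through the partial list ordered by the genotype comparison. Their 4 transcripts were all above the signal minimum in every replicate and summed to 20759, 20867 and 17880 in mutant replicates 1, 2 and 3, against 25880, 27277 and 25486 in the control replicates, so the sum was lowest in replicate 3 in both genotypes. For 2 of the 4 transcripts replicate 3 was lowest in both (32.7% of the 8926). Ecdysone is the steroid that times molting and pupariation, and 12 of 29 listed genes of its response and of staging were identified, with 21 transcripts. Replicate 3 was the lowest in the mutant in 18 of these 21 (47.8% of the 8926) and in the control in 8 (43.8%), where it was also the highest in 8 (35.9%). It was the lowest in both in 7 of 21, a share near the 32.7% of the 8926. No member belonged to any of the 23 lists followed, since none has a symbol here.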

How the data were processed

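Wing disc RNA of 3 Myb mutant and 3 yw control biological replicates was measured on 23 one-color arrays (random-primed, double-stranded Cy3 cDNA). The authors deposited linear signal intensity, 1 value per transcript and array, which they had background-corrected, quantile-normalized and summarized per transcript by median polish with the RMA algorithm in ArrayStar. Array medians ran from 996 to 1060 over tested transcripts. The table had 0 columns of samples outside the series, no pair of arrays was identical (0 pairs), and 4414 transcripts with a single value throughout were left out.

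Log2 signals were averaged over the arrays of each replicate, with groups and replicate numbers taken from the sample titles. Nothing states that replicates came from separate crosses, so p-values measure only the spread between these samples. Genotypes were compared by limma 3.58.1 in R 4.3.3 (lmFit and eBayes on 6 means, two-sided, Benjamini-Hochberg adjustment), called at an adjusted p under 0.001 with a signal of at least 500 in 1 replicate. Counts were made in Python 3.11.15. Scripts were tested on simulated data. Deviations of same-numbered replicates correlated at 0.200, 0.181 and 0.277 over 16637 transcripts, each over 0.1. The numbers were therefore taken to pair the samples in the blocked fit. Over the 8926 transcripts the same numbers correlated at 0.176, 0.445 and 0.608, each over 0.1 as well. There, mutant replicate 1 correlated more with control replicate 2 (0.437) than with control replicate 1. The labels do not state what a number shares, so the blocked calls depend on this choice.

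Members and gene lists were chosen with earlier results of these data known. Genes were to be named by the size of the smaller SD, the combination of highest replicates, list membership and closeness to the SD minimum, among transcripts with a symbol. As no member had one, members are given by transcript number, all 18 of them, and the transcripts of the 7 put aside were added after their values were seen. Alternatives were other SD and signal minimums, no limit on the difference, other averaging or subsets of arrays, centring, a second quantile normalization and leaving out each replicate. Promoter motifs were not analysed here, slide and scan were not analysed here, and the authors' own fold changes and p-values were not used.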

Additional observations from a re-analysis of the deposited data

Results flagged for a closer look

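Among the 90 sets of 4 arrays of 1 replicate (18 members, 5 replicates with 4 arrays), 5 held an array far from the other 3, by Dixon's criterion. The critical value lets chance mark about 1 set in 20. Each gap to the nearest other array was small. On the log2 scale, array 4 of mutant replicate 2 was high by 0.0879 for FBtr0071411, array 1 of mutant replicate 2 was high by 0.142 for FBtr0078799, and array 2 of mutant replicate 2 was low by 0.111 for FBtr0100231. Array 4 of control replicate 2 was high by 0.0641 for FBtr0091873, and array 2 of control replicate 2 was high by 0.0404 for FBtr0091895. None of these gaps reached 0.3. The widest gaps between an array and the rest lay below the critical value for the ratio of gap to range: in mutant replicate 3, array 4 was lower than the nearest other array by 2.19 for FBtr0082456 (ratio 0.799) and by 1.15 for FBtr0078814 (ratio 0.732).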

How the results depend on the processing

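With 3 replicates a genotype and no detection flags analysed here, the number of members followed the minimums: an SD minimum of 0.25 gave 59 transcripts and 0.4 gave 4, and a signal minimum of 250 gave 42 and 1000 gave 8. At 0.25 the same replicate was highest in both genotypes in 34, lowest in 43 and the order was shared in 19, and at 0.4 in 4, 2 and 2. Replicate 3 was at the same extreme in 57 of 59 and in 4 of 4. These last counts, and all on the shared extreme of replicate 3, were chosen after seeing the data. Arrays 3 and 4 alone, with only array 3 for control replicate 3, gave 24 transcripts, of which 12 were members. Among these 24, the highest replicate was shared in 18, the order in 7 and replicate 3 was at the same extreme in 20. Centring each array on its median gave 18 transcripts, of which 14 were members, with the lowest replicate shared in 7 and replicate 3 at the same extreme in 18; a second quantile normalization gave 17, of which 15 were members. Other averaging, other array subsets and no limit on the difference gave 16 to 25 transcripts. Of the 18 members, 11 were kept with arrays 1 and 2 and 12 with the first array. With the median of arrays 15 were kept, and with the mean of linear signals 17. Leaving out 1 replicate gave 2 to 61 transcripts.

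Over all transcripts, limma called 234 between the genotypes at an adjusted p under 0.001, 1066 under 0.05 and, leaving out 1 replicate, 70 to 317; the methods' t-test after adjustment called 17. With the replicate number as a block, for the pairing of the samples, it called 61. Of the 18 members, 0 passed an adjusted p of 0.05 without the block and 1 with it, and 0 had an unadjusted p under 0.05 without the block and 5 with it; these blocked member counts were added after seeing the data. At an adjusted p under 0.001 no setting called a member (0 of 18).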
